A study of Homo sapiens with 9 samples.

Results

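Thapsigargin was compared with its vehicle, DMSO, in SH-SY5Y cells, a human neuroblastoma line widely used as a neuron-like model. Total RNA was labelled and read on Illumina 1-colour bead arrays with 22184 probes. The comparison covers 6 of the 9 labelled samples of the series, 3 given DMSO and 3 given thapsigargin, and all probes of the array. The labels name no gene edit or transgene, and the groups are labelled as differing in the added agent alone. The sources used here give no dose, length of exposure or passage. Its title links stress of the endoplasmic reticulum (ER) to insulin signalling by way of damaged mitochondria.

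Only 4 independent arrays stood behind the 6 samples. DMSO replicate 2 equalled the mean of DMSO replicates 1 and 3 at every probe, within a relative deviation of 1.52e-07, and thapsigargin replicate 2 equalled the mean of thapsigargin replicates 1 and 3, within 9.76e-08. DMSO replicate 3 was a mixture, with weights of 0.75 on replicate 1 and 0.25 on an array that no column holds alone. That array was recovered as 4 times replicate 3 minus 3 times replicate 1, and it is called DMSO replicate 3 from here on. Its values followed the rank order of that sample's detection p-values, with 0 breaks of order among 22183 neighbouring pairs, against 6785 breaks for the column as deposited. The results rest on DMSO replicates 1 and 3 and thapsigargin replicates 1 and 3, so n = 2 in each group throughout. The labels do not say whether replicates were separate cultures, so the p-values cover no more than the spread of these arrays, which may be technical.

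Thapsigargin blocks SERCA, the pump that moves calcium from the cytosol into the ER. Chaperones of the ER need calcium, so the emptied store leaves unfolded proteins, which 3 sensors in the ER membrane detect. PERK (gene EIF2AK3) slows translation and lets the transcription factor ATF4 be made, IRE1 (gene ERN1) splices the mRNA of XBP1, and ATF6 is cut to free a transcription factor. Together they form the unfolded protein response (UPR), which raises chaperones, degradation and secretory capacity, and under lasting stress the factor CHOP (gene DDIT3).

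Mean intensity per array ranged from 318.1 to 410.5 units, and between 12455 and 12601 probes, or 56.1% to 56.8%, were above background at a detection p-value below 0.05. The small number of arrays limits the precision. Of 17 measured markers of noradrenergic neuroblasts, 15 were above background on all 4 arrays and HAND2 on none. None of 7 blood cell markers was above background on all 4 arrays, and of 8 epithelial markers 2 were, with CDH1, CLDN4, ESRP1, KRT19 and KRT8 on none. Markers of glia (1 of 5), endothelium (3 of 6) and the substrate-adherent, mesenchymal type of neuroblastoma cell (5 of 9, with FN1, PRRX1 and YAP1 on none) were above background on all 4 arrays less often than the noradrenergic ones (15 of 17). The log2 of the summed signal of the noradrenergic markers, in which the brightest markers weigh most, was 15.72 and 15.73 on the DMSO arrays. It was 15.58 and 15.54 on the thapsigargin arrays. The same value for the epithelial markers ranged from 8.06 to 8.14 and from 8.19 to 8.22, and for the mesenchymal markers from 9.75 to 9.84 and from 9.53 to 9.71. Their part in the results was not tested. In bulk RNA, fewer cells of a type and less RNA per cell cannot be told apart.

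Thapsigargin moved a large share of the transcriptome by a small amount and a small set of genes by a large one. Of 12574 probes above background on both arrays of at least 1 group, 4786 (38.1%) passed limma's test at a Benjamini-Hochberg adjusted p below 0.05, 2315 (18.4%) higher and 2471 (19.7%) lower with the drug. The median called rise was 0.42 and the median called fall -0.43 on the log2 scale. The groups did not overlap for 8776 of the kept probes (69.8%) and for all 4786 called ones. Where a called gene is said below not to overlap, this describes its values and adds nothing to the call. At least 2-fold changes were found for 188 probes (1.5%) that rose and 157 (1.25%) that fell, and at least 4-fold changes for 28 and 8. These counts of at least 2-fold changes depend on the background correction: they were 127 and 74 without it and 116 and 65 with normexp. The authors' normalized values were read for only 1 DMSO column and 2 thapsigargin columns, and their background correction is not known. Their counts are not set beside these. The log2 differences between arrays of 1 group had an SD of 0.136 for DMSO and 0.148 for thapsigargin, and those between arrays of different groups 0.397 to 0.421. Rises made up 48.4% of the calls, but 30.9% when arrays were centred on their medians instead of quantile-normalized, so the balance of small rises and falls depends on the scaling. Without DMSO replicate 3, the number of calls was 3117. Sizes of change for genes near background depend on the background correction: without it the rise of PCP4 was 3.36 in place of 4.34 and the fall of EGR1 -1.89 in place of -2.74, and bounds given as "at least" hold for the corrected values only.

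**Figure D1:**
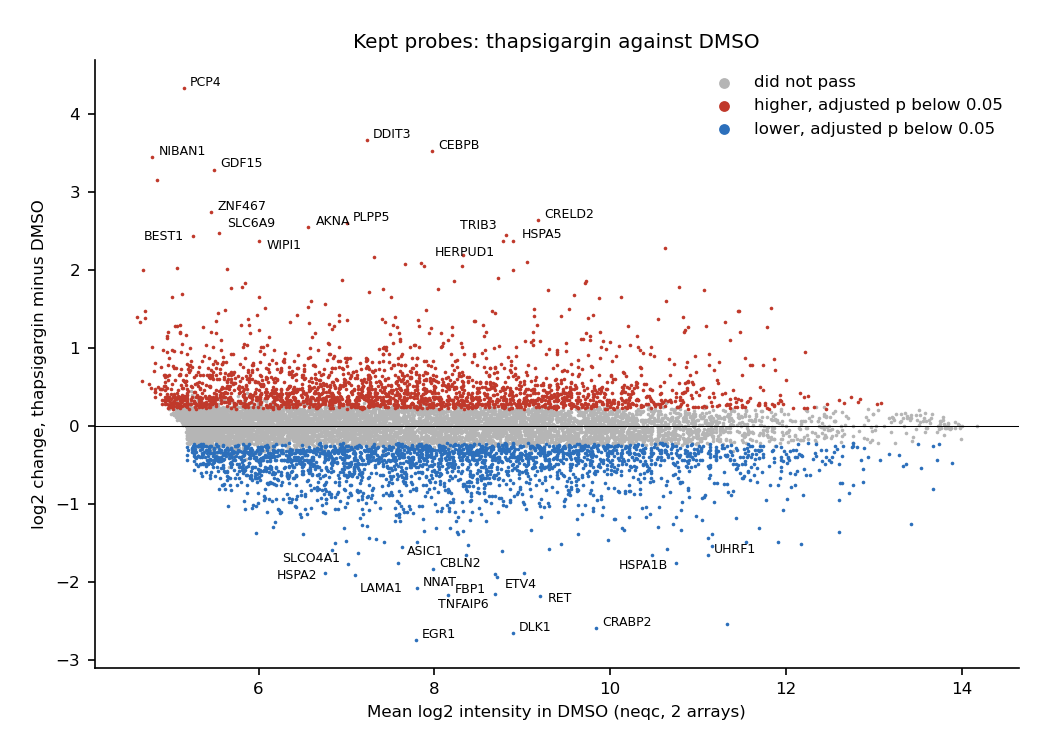
Each point is 1 of the 12574 kept probes. The horizontal axis is the mean log2 intensity on the 2 DMSO arrays and the vertical axis the log2 change, thapsigargin minus DMSO; red points rose and blue points fell at an adjusted p below 0.05, grey points did not pass, and labels mark the 15 genes with the largest rise and the 15 with the largest fall. With background correction PCP4 stands highest, at 4.34, and EGR1, not above background on either thapsigargin array, stands lowest, at -2.74; without it they were at 3.36 and -1.89.

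Genes were then read in groups, each gene through its brightest kept probe. Over all 10404 genes with a kept probe, 1947 (18.7%) rose and 2058 (19.8%) fell, 4005 (38.5%) in all, with a median log2 change of 0.00, and these shares are the background for every count below. At least 2-fold rises were found for 162 genes (1.56%) and falls for 132 (1.27%). Rises made up 71.4% to 94.1% of the kept genes in ER folding, ER-associated degradation, secretory traffic, N-glycosylation, amino acid supply, tRNA charging and the ATF4 and CHOP outputs. Falls made up 80% to 91.7% in cell cycle drivers, cytosolic heat shock and cholesterol synthesis. The sensors and factors of the UPR had 53.8% rises and no fall. Rises were 36.4% to 44.4% in cell cycle brakes, calcium handling, apoptosis, autophagy and NRF2 targets, and NRF2 targets had as many falls (37.5%). Falls were 46.7% in immediate early genes, 43.8% in noradrenergic markers, 29.4% in mitochondrial upkeep and 29.2% in oxidative phosphorylation. In insulin signalling each direction held 21.1%. Of 223 genes with 2 or more called probes, 21 had called probes that moved in opposite directions, none of them a member of the lists in the plot of gene groups.

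**Figure D2:**
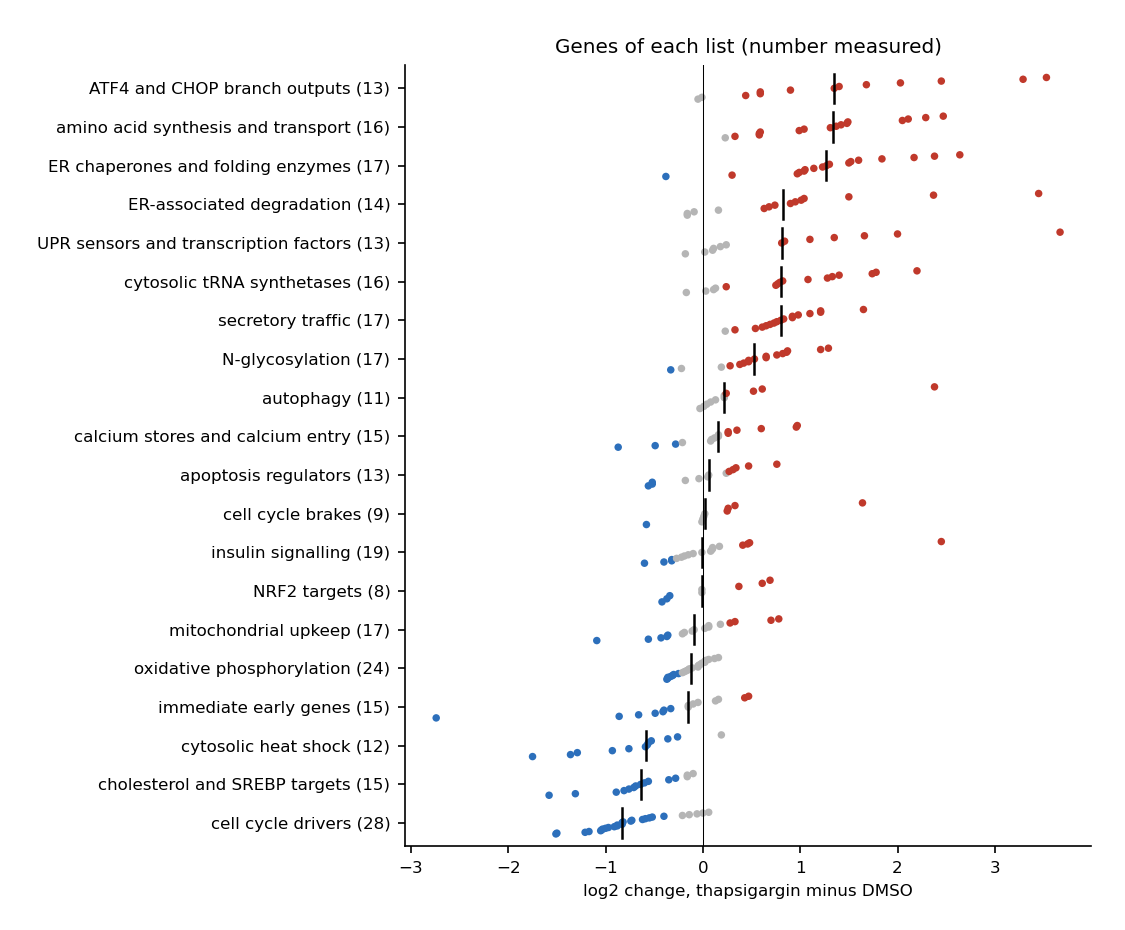
Each row is a group of genes with the number measured in brackets, ordered by its median. Each point is the log2 change of 1 gene, thapsigargin minus DMSO, red or blue where it rose or fell at an adjusted p below 0.05 and grey where it did not pass; the black bar is the median of the group, from -0.83 for cell cycle drivers to 1.35 for the ATF4 and CHOP outputs.

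The folding machinery of the ER rose almost as a whole. Of 20 listed chaperones and folding enzymes, 17 passed the filter on dim probes, 1 of them only through the thapsigargin arrays. Of these, 16 rose and 1 fell, with a median log2 change of 1.27, and 13 rose at least 2-fold. HSPA5 encodes BiP, the main Hsp70 chaperone of the ER lumen. Its log2 intensity was 8.95 and 8.84 on the DMSO arrays and 11.29 and 11.27 on the thapsigargin arrays. Every treated array was above every control array, a 5.22-fold rise (log2 change 2.38, SE 0.078, limma adjusted p = 1.03e-06). CRELD2, an ER protein induced by stress, went from 9.19 and 9.17 to 11.78 and 11.84, or 6.22-fold. HYOU1, a large chaperone and exchange factor for BiP, went from 7.37 and 7.25 to 9.46 and 9.51, or 4.51-fold. The groups did not overlap for either. PDIA4, a disulphide isomerase, rose 3.59-fold, and CALR (calreticulin), a calcium-binding chaperone of glycoproteins, rose 1.96-fold, from 9.41 and 9.39 to 10.32 and 10.42. FKBP14, a proline isomerase of the ER, rose by 0.30 (SE 0.076, limma adjusted p = 0.0164), and did not pass under median centring (0.18), without either DMSO array or without thapsigargin replicate 1 (0.25). The exception was ERO1A, one of a pair of oxidases that recharge disulphide isomerases, at 7.26 and 7.05 against 6.84 and 6.70, a log2 change of -0.38 (SE 0.097, limma adjusted p = 0.0152) that did not pass without DMSO replicate 1 (-0.27) or without thapsigargin replicate 3 (-0.32). Its partner ERO1B rose by 1.05 (SE 0.092, limma adjusted p = 9.41e-05), from 5.02 and 5.24 to 6.19 and 6.18. ERO1B was above background on only 1 DMSO array, so the size of its rise is less certain.

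Since these genes moved together, their promoters were read for the elements known from ER chaperone genes, as a description only. RefSeq promoters (GRCh38.p14) were matched for 8629 of the 10404 genes, and both strands of the 250 bases before each start site were searched. The ER stress response element, ERSE, spelled CCAAT, then 9 bases of any kind, then CCACG, is bound by NF-Y at its CCAAT end and by ATF6 or XBP1 at its CCACG end. It occurred in 22 of 27305 promoters (0.0806%) and in 13 of the 8629 tested genes (0.151%). Of these 13 genes 12 rose, none fell and 1 did not pass, with a median log2 change of 1.30 and 8 rises of at least 2-fold. Over all 8629 genes 18.7% rose and 20% fell. Among the 136 genes that rose at least 2-fold 8 (5.88%) held the element, among the 1725 that fell 0, and among the 5288 that did not pass 1. The element was defined on ER chaperone promoters, and 6 of the 13 genes are in the folding group, so the counts are not independent of it. A match is not shown to be a bound site. The windows of 12 of the 13 genes are printed 5′ to 3′ on the strand on which the element reads as spelled, with its fixed letters in capitals.
HSPA5, chr9:125241381-125241419, minus strand, rose by 2.38: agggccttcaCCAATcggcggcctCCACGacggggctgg
CRELD2 and ALG12, shared, chr22:49918544-49918582, minus strand, rose by 2.64 and 0.42: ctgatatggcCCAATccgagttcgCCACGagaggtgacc
XBP1, chr22:28800593-28800631, minus strand, rose by 2.00: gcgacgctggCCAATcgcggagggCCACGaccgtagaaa
FICD, chr12:108515113-108515151, plus strand, rose by 1.61: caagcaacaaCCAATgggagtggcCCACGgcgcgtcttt
HSP90B1, first match, chr12:103930206-103930244, plus strand, rose by 1.60: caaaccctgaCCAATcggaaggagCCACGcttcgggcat
HSP90B1, second match, chr12:103930311-103930349, minus strand: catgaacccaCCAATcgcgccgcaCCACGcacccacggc
CANX, chr5:179698768-179698806, plus strand, rose by 1.30: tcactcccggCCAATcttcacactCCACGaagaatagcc
SERP1 and EIF2A, shared, chr3:150546700-150546738, plus strand, rose by 1.30 and 0.27: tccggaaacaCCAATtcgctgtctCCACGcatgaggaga
ERO1B, chr1:236282173-236282208, plus strand, rose by 1.05: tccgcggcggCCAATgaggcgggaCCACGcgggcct
CALR, chr19:12938374-12938412, minus strand, rose by 0.97: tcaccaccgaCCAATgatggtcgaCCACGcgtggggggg
ZNF17, chr19:57410911-57410948, plus strand, did not pass (-0.22): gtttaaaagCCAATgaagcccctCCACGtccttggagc

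Among these genes, FICD adds and removes AMP on BiP, HSP90B1 encodes the ER form of Hsp90, CANX (calnexin) is the membrane-bound partner of calreticulin, and SERP1 helps membrane proteins through translocation. In HSPA5 the element lay 66 to 48 bases before the start site and in XBP1 52 to 34. In 2 cases a single copy of the element lay between a pair of genes that start in opposite directions. In the pair CRELD2 and ALG12, CRELD2 was at 9.19 and 9.17 against 11.78 and 11.84, whereas ALG12, a mannosyltransferase of glycan assembly, was at 5.71 and 5.51 against 5.95 and 6.12 (log2 change 0.42, SE 0.099, limma adjusted p = 0.0107). The element lay 80 to 62 bases before the start of CRELD2 and 134 to 116 before that of ALG12. In the pair SERP1 and EIF2A, SERP1 rose by 1.30 (SE 0.089) with the element 232 to 214 bases upstream. EIF2A, an initiation factor that is distinct from eIF2-alpha, rose by 0.27 (SE 0.074) with the element 77 to 59 bases upstream. The partner with the larger rise was thus the nearer one in the first pair and the farther one in the second.

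The other elements searched were read in the same windows. A shorter relative, ERSE-II, spelled ATTGG, then 1 base of any kind, then CCACG, occurred in 14 of 27305 promoters (0.0513%) and in 9 tested genes, of which 5 rose and 2 fell. HERPUD1 and HYOU1, with 1 and 2 copies, are shown because they were the largest rises among them, and GYS1 because it fell, by 0.63 on the log2 scale (SE 0.076, limma adjusted p = 0.000471).
HERPUD1, chr16:56932015-56932045, plus strand: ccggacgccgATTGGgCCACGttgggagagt
HYOU1, first copy, chr11:119057264-119057294, plus strand: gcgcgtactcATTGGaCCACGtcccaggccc
HYOU1, second copy, chr11:119057370-119057400, plus strand: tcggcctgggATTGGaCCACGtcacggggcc
GYS1, chr19:48993373-48993403, plus strand: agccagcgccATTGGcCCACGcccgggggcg
The XBP1 and ATF6 element UPRE, read as TGACGTGG, was in 0.667% of promoters and in 64 tested genes, of which 30 rose and 9 fell. Its reverse complement begins with CCACG and can overlap the end of an ERSE or ERSE-II. The C/EBP and ATF composite element CARE, bound by ATF4 and CHOP with C/EBP partners and read as TGATGNAAT, was in 0.916% of promoters and in 37 tested genes, of which 10 rose and 9 fell. The related form TTGCATCA, which overlaps CARE where N is C, was in 0.82% of promoters and in 36 tested genes, of which 14 rose and 6 fell. A sterol element was in 10 promoters (0.0366%) and in 4 tested genes, none of which passed. The CCAAT end of the ERSE alone was in 35.8% of tested genes, 50.7% of those at least 2-fold higher and 44.1% of those at least 2-fold lower. It was in 87.5% of the folding group, but also in 77.3% of cell cycle drivers and 76.9% of the cholesterol group, which mostly fell.

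**Figure D3:**
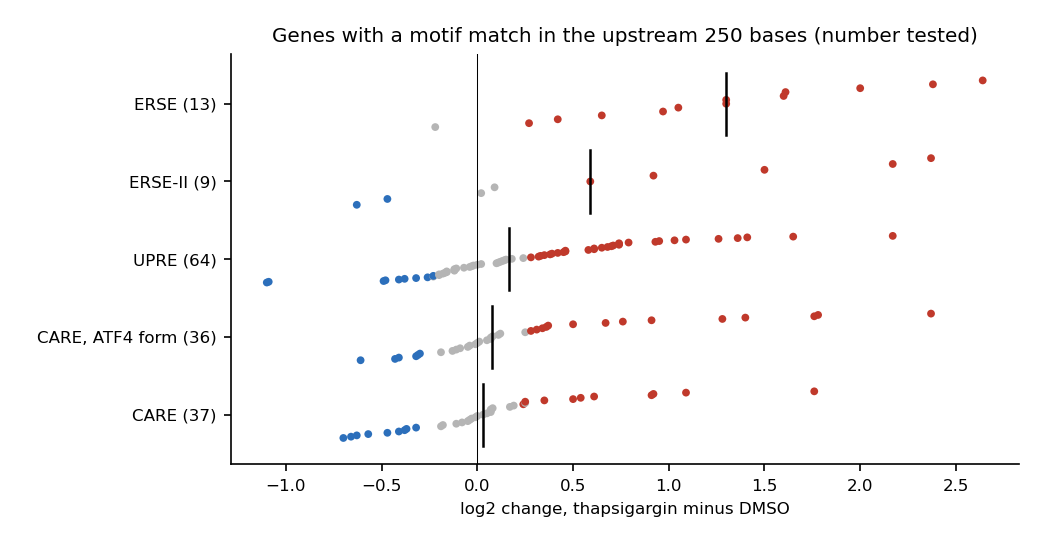
Each point is 1 tested gene with a match to the motif in the 250 bases before its start site, placed by its log2 change, thapsigargin minus DMSO, with the number of genes in brackets. Red and blue mark rises and falls at an adjusted p below 0.05, grey marks genes that did not pass, and the black bar is the median, 1.30 for ERSE and 0.03 for CARE.

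Degradation of misfolded proteins, export and glycan assembly rose with folding, by smaller steps. Of 15 measured genes listed for ER-associated degradation, 14 were kept, 2 only through the thapsigargin arrays, and 10 rose and none fell (median 0.82). HERPUD1, a membrane scaffold of the degradation complex, went from 8.69 and 8.86 to 11.16 and 11.14, or 5.18-fold (SE of the log2 change 0.085, limma adjusted p = 1.61e-06). SYVN1, its ubiquitin ligase, went from 9.22 and 9.04 to 10.65 and 10.60, or 2.82-fold, and EDEM1, a mannosidase that marks glycoproteins for removal, rose 2.06-fold. For all 3 genes the groups did not overlap. EDEM3 (-0.16) and the ubiquitin-conjugating enzyme UBE2G2 (-0.09) did not pass. The list also held NIBAN1, a stress-induced protein that is not a degradation factor. It was not above background on either DMSO array (4.83 and 4.75) and stood at 8.25 and 8.24 with thapsigargin. Its rise was at least 8.48-fold, with the control level on each array set to the lowest detected signal, or to the probe's own signal where that was higher, and a further probe rose by 3.16.

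Secretory traffic had 18 measured genes, of which 17 were kept, 2 only through the thapsigargin arrays; 16 rose and none fell (median 0.80). TMED2, a cargo receptor of the p24 family, stood at 10.83 and 10.85 against 12.07 and 12.03 and rose 2.31-fold. SEC61A1, the pore of the ER translocon, stood at 9.13 and 9.11 against 10.13 and 10.31 and rose 2.14-fold. KDELR3, which returns escaped ER proteins from the Golgi, was above background only with thapsigargin and rose at least 2.82-fold; SEC24D, a coat protein of ER exit vesicles, rose at least 2.03-fold in the same way. Of 17 kept genes of N-glycosylation 14 rose and 1 fell (median 0.53). The largest rises were in the oligosaccharyltransferase, with DDOST from 11.09 and 11.09 to 12.36 and 12.41 (2.45-fold) and STT3A from 9.11 and 9.13 to 10.32 and 10.34 (2.31-fold). Both are subunits of the enzyme that moves the glycan onto the protein. Among the earlier assembly enzymes, DPAGT1 (0.53), ALG1 (0.47), ALG5 (0.82) and ALG12 (0.42) rose by smaller steps and ALG6 fell (-0.33). ALG3 (0.19) and ALG8 (-0.22) did not pass.

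Of the transcripts of the 3 sensors, those of EIF2AK3 and ATF6 rose and that of ERN1 did not pass. EIF2AK3 stood at 5.58 and 5.47 on the DMSO arrays and at 6.25 and 6.42 on the thapsigargin arrays, a 1.75-fold rise (log2 change 0.81, SE 0.089, limma adjusted p = 0.000309). ATF6 stood at 8.74 and 8.99 against 9.78 and 9.64, a 1.79-fold rise (log2 change 0.84, SE 0.103, limma adjusted p = 0.000521). ERN1, at 5.69 and 6.0 against 5.73 and 5.60, overlapped between the groups and did not pass (log2 change -0.18, SE 0.112, limma adjusted p = 0.246). The ERN1 signal was low, so a moderate change may not be detectable. These arrays read mRNA levels, not the activity of the sensors or the splicing of XBP1.

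Of the 13 sensors and transcription factors, 7 rose and none fell, with a median of 0.81. DDIT3, which encodes CHOP, had the largest rise, from 7.34 and 7.13 to 10.90 and 10.90, or 12.7-fold (log2 change 3.67, SE 0.089, limma adjusted p = 2.87e-07). XBP1, from 8.93 and 8.85 to 10.88 and 10.90, rose 4.01-fold (log2 change 2.00, SE 0.076, limma adjusted p = 2.15e-06). ATF4, from 10.26 and 9.97 to 11.66 and 11.90, rose 3.17-fold on its brighter probe (log2 change 1.66, SE 0.119, limma adjusted p = 3.6e-05). The groups did not overlap for any of these 3 genes. A further ATF4 probe did not pass (log2 change 0.02, SE 0.086, limma adjusted p = 0.871), so the rise rests on 1 of 2 probes. ATF3, a stress-induced repressor and partner of CHOP, rose 2.55-fold. CREBZF (0.02) and NFE2L2 (0.10), the factor NRF2, did not pass.

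Genes known to be driven by ATF4 and CHOP held several of the largest rises on the array. Of 13 kept genes, 2 kept only through the thapsigargin arrays, 11 rose and none fell (median 1.35). CEBPB, a C/EBP factor that pairs with both, went from 7.98 and 7.95 to 11.49 and 11.51, or 11.6-fold (SE of the log2 change 0.074, limma adjusted p = 2.3e-07). GDF15, a secreted stress cytokine, went from 5.45 and 5.53 to 8.77 and 8.80, or 9.8-fold, and TRIB3, a pseudokinase that binds AKT and CHOP, went from 8.80 and 8.82 to 11.29 and 11.23, or 5.46-fold. Replicates of these 3 genes lay within 0.08 of each other, far inside the gap between the groups. SESN2, a sestrin that restrains mTORC1, was not above background on either DMSO array (5.14 and 5.00) and rose at least 3.83-fold, to 7.12 and 7.07. RCAN1 (-0.01), an inhibitor of calcineurin, and LPIN1 (-0.05), a phosphatidate phosphatase, did not pass.

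Amino acid supply and tRNA charging rose over most of their members. Of 16 kept genes of amino acid synthesis and transport 15 rose and none fell (median 1.34). ASNS, which makes asparagine, went from 10.59 and 10.65 to 12.89 and 12.93, or 4.9-fold (SE of the log2 change 0.075, limma adjusted p = 1.03e-06). SLC7A5, the light chain of a leucine transporter, rose 4.31-fold from 8.99 and 9.10 to 11.17 and 11.14, and SLC6A9, the glycine transporter GlyT1, rose 5.56-fold from 5.65 and 5.46 to 7.95 and 8.11. MTHFD2, of mitochondrial one-carbon metabolism, rose 4.15-fold. The groups did not overlap for any of them. SLC38A2, a transporter of small neutral amino acids, was the member that did not pass (0.23, SE 0.095, limma adjusted p = 0.0948).

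All 16 cytosolic aminoacyl-tRNA synthetases were measured, 1 kept only through the thapsigargin arrays, and 12 rose and none fell (median 0.81). WARS1, for tryptophan, went from 8.33 and 8.34 to 10.50 and 10.57, or 4.6-fold. AARS1, for alanine, went from 10.73 and 10.83 to 12.62 and 12.51, or 3.44-fold, and SARS1, for serine, rose 3.34-fold. YARS1, for tyrosine, rose 2.64-fold. In contrast VARS1, for valine (10.12 and 10.05 against 10.06 and 10.17), overlapped between groups, with a log2 change of 0.03 (SE 0.080, limma adjusted p = 0.811). RARS1, for arginine, did not pass either (0.11, SE 0.076, limma adjusted p = 0.282).

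**Figure D4:**
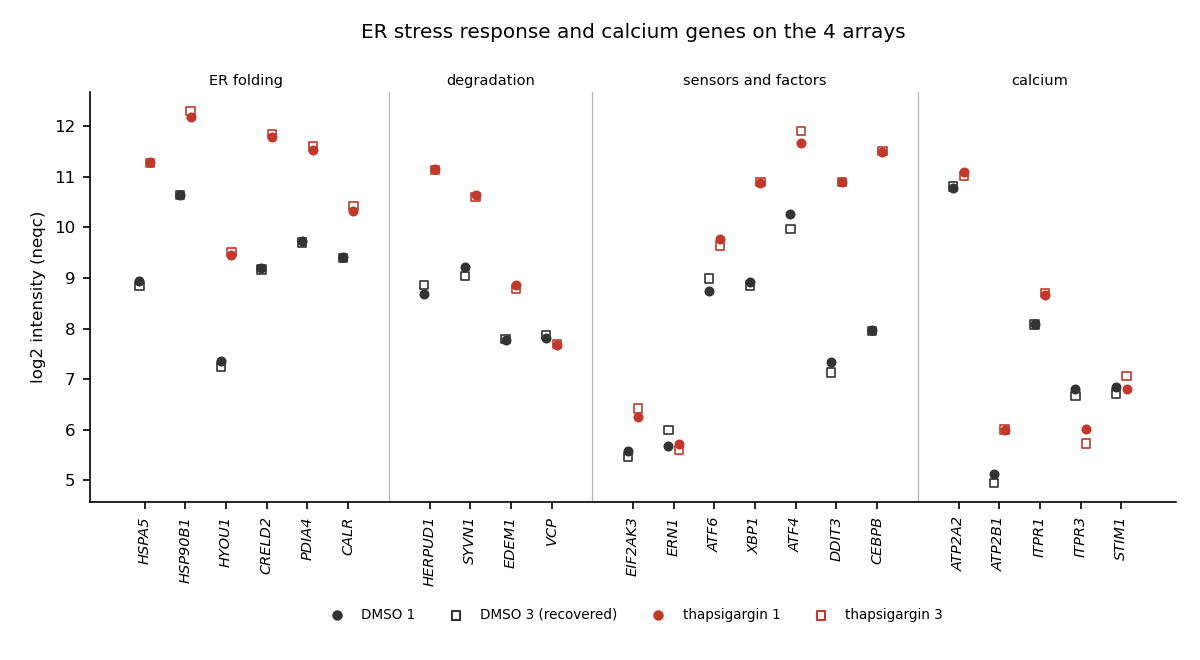
Log2 intensity (vertical axis) of genes of ER folding, degradation, the stress sensors and factors, and calcium handling on each of the 4 arrays: black for DMSO, red for thapsigargin, filled circles for replicate 1 and open squares for replicate 3. The red marks of HSPA5, near 11.28, lie far above the black ones, near 8.90, while those of ERN1 overlap.

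Calcium handling showed no common direction. Of 15 kept genes 6 rose and 3 fell (median 0.16), and the 6 rises became 3 when arrays were centred on their medians. ATP2A2 encodes SERCA2, a target of thapsigargin and the pump of most non-muscle cells. It stood at 10.77 and 10.81 on the DMSO arrays and at 11.09 and 11.02 on the thapsigargin arrays, a 1.2-fold rise (log2 change 0.26, SE 0.076, limma adjusted p = 0.0273). Its further probes changed by 0.13 and 0.17 and did not pass. The call on the brightest probe was lost under median centring (0.11), with the replicate number as a block, and whenever any 1 array was left out (0.23 to 0.30). Plasma membrane pump ATP2B1 was not above background on either DMSO array and rose at least 1.79-fold, to 5.99 and 6.01. Receptors for the messenger IP3, which release calcium from the ER, moved apart: ITPR1 rose 1.51-fold (8.09 and 8.08 against 8.67 and 8.70), ITPR3 fell 1.83-fold (6.81 and 6.67 against 6.01 and 5.73), and ITPR2 (0.09) did not pass. ORAI1 (0.08), the channel that admits calcium once the store is empty, did not pass.

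Cytosolic chaperones mostly fell. Of 12 genes of the heat shock group 11 fell and none rose (median -0.58); 1 was kept only through the DMSO arrays. The list also held HSPD1 and HSPE1, chaperonins of the mitochondrial matrix, which fell by 0.36 and 0.57. HSPA8, the constitutive Hsp70, fell 2.56-fold from 12.63 and 12.58 to 11.28 and 11.22 (log2 change -1.36, SE 0.076, limma adjusted p = 1.19e-05), and its further probe fell by 1.51. HSPA1B, an inducible Hsp70, fell 3.37-fold from 10.77 and 10.73 to 9.04 and 8.94. HSPA1A, at 6.31 and 6.01 on the DMSO arrays, was not above background with thapsigargin, at least 2.01-fold lower. These 2 genes are near-identical copies, and signal cannot be assigned to either with certainty. HSP90AA1, the inducible cytosolic Hsp90, fell 1.9-fold on its brightest probe (12.01 and 12.01 against 11.20 and 10.98), but a further probe did not pass (-0.13). BAG3, a co-chaperone of Hsp70, did not pass (0.19).

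Genes of cholesterol synthesis fell as a group. Of 15 kept genes, 1 kept only through the DMSO arrays, 12 fell and none rose (median -0.64). HMGCS1, an early enzyme of the mevalonate pathway, went from 10.64 and 10.66 to 8.99 and 9.17, a 2.98-fold fall (log2 change -1.58, SE 0.087, limma adjusted p = 1.09e-05). INSIG1, the ER protein that retains the SREBP complex and is itself an SREBP target, went from 10.06 and 10.19 to 8.89 and 8.75, a 2.48-fold fall, and a further probe fell by 1.01. DHCR7 and MVK, a late and an early enzyme, fell 1.85-fold and 1.76-fold. The regulators SREBF2 (-0.16) and SREBF1 (-0.10) did not pass, although SREBF2 passed under median centring (-0.30). LSS, lanosterol synthase, fell by 0.76 on its brightest probe, while its further probes did not pass (-0.03 and -0.20).

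The proliferation program was lower. Of 28 cell cycle drivers, all of them kept, 23 fell and none rose (median -0.83), 8 at least 2-fold. RRM2, the regulated subunit of ribonucleotide reductase, fell 2.85-fold, from 9.35 and 9.52 to 8.0 and 7.85 (log2 change -1.51, SE 0.092, limma adjusted p = 1.76e-05). MCM6, a subunit of the replicative helicase, fell 2.83-fold, from 6.86 and 6.87 to 5.41 and 5.32. CCNE2, a cyclin of the G1/S transition, fell 2.32-fold, and PCNA, the sliding clamp of DNA polymerase, fell 2.25-fold on its brightest probe and by 0.97 on a further one. Every thapsigargin array was below every DMSO array for these 4 genes. MCM7 is uncertain: its brightest probe did not pass (12.76 and 12.75 against 12.72 and 12.80) and a further one changed by -0.05. Its remaining probe fell by 0.66 (SE 0.128, limma adjusted p = 0.00497). CCND3 did not pass (-0.06, SE 0.074, limma adjusted p = 0.561).

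Brakes on the cycle did not move together. Of 9 kept genes 4 rose and 1 fell (median 0.02). CDKN1A, which encodes the CDK inhibitor p21, went from 9.90 and 9.84 to 11.51 and 11.51, a 3.11-fold rise (log2 change 1.64, SE 0.075, limma adjusted p = 4.65e-06). CDKN2D, the inhibitor p19, fell 1.5-fold. BTG1 and RB1 rose by 0.33 and 0.26, and neither passed under median centring; RB1 did not pass with any 1 array left out either. CDKN2A (0.00) and RBL2 (-0.01) did not pass.

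Several immediate early genes, the first to answer growth factors, were lower. Of 15 kept genes, 2 kept only through the DMSO arrays, 7 fell and 2 rose (median -0.15). EGR1, a zinc finger factor downstream of ERK, had the largest fall of any named gene with background correction, from 7.83 and 7.76 to 5.07 and 5.05, where it was not above background, at least 6.23-fold lower (SE of the log2 change 0.076, limma adjusted p = 5.27e-07). FOS was close to background in DMSO (5.47 and 5.43) and fell below background, at least 1.23-fold lower. DUSP6, a phosphatase that restrains ERK and is one of its targets, fell 1.81-fold. MYC stood at 10.87 and 10.59 against 10.15 and 10.33, a 1.4-fold fall that did not pass without DMSO replicate 1 (-0.35) or without thapsigargin replicate 1 (-0.40). FOSL1 (-0.05) and NR4A1 (-0.10) did not pass.

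**Figure D5:**
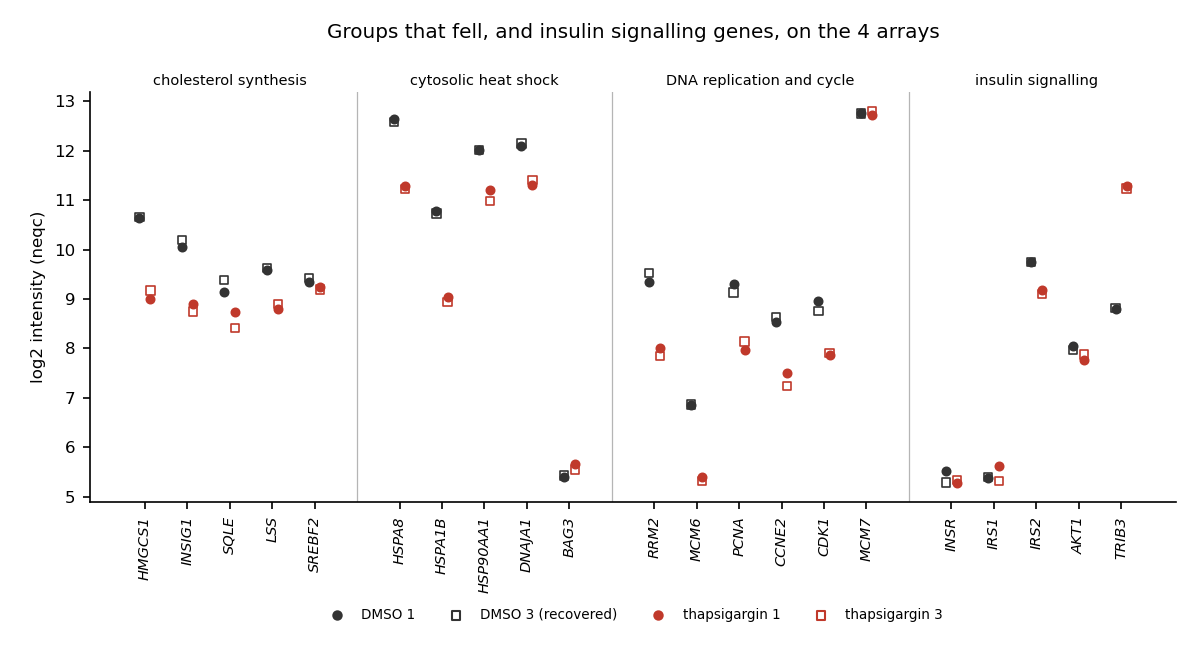
Log2 intensity (vertical axis) of genes of cholesterol synthesis, cytosolic heat shock, the cell cycle and insulin signalling on each of the 4 arrays: black for DMSO, red for thapsigargin, filled circles for replicate 1 and open squares for replicate 3. The red marks of HMGCS1 and RRM2 lie below the black ones, while those of INSR, near 5.3, overlap.

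Apoptosis regulators showed no common direction. Of 13 kept genes 5 rose and 3 fell (median 0.06), and the 5 rises became 2 under median centring and 3 with the replicate number as a block. TNFRSF10B, the death receptor DR5 and a target of CHOP, rose 1.69-fold on its brightest probe (9.64 and 9.63 against 10.37 and 10.41; log2 change 0.76, SE 0.074, limma adjusted p = 0.000172), but a further probe did not pass (-0.03). BID and CASP2, a BH3 protein and an initiator caspase, each fell 1.43-fold. BIRC5 (survivin), which also serves mitosis, fell by 0.56 and did not pass without either thapsigargin array. BCL2L11 (-0.04) and BAK1 (0.05) did not pass.

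Autophagy genes held 1 large rise. WIPI1, which binds the lipid PI3P on forming autophagosomes, went from 6.02 and 5.97 to 8.37 and 8.38, or 5.21-fold (SE of the log2 change 0.074, limma adjusted p = 8.43e-07). SQSTM1 (p62), a cargo receptor and NRF2 target, rose 1.52-fold, and GABARAPL1, of the ATG8 family, rose 1.43-fold. Of 11 kept genes 4 rose and none fell (median 0.22), and MAP1LC3B (0.01) did not pass. Among 8 kept NRF2 targets 3 rose and 3 fell (median -0.01). NQO1, a quinone reductase, rose 1.62-fold from 5.81 and 5.95 to 6.61 and 6.54, whereas TXN (thioredoxin) fell 1.34-fold, and GCLM and SRXN1 (both -0.01) did not pass.

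The series title names insulin signalling. Of 19 kept genes of that pathway, 1 kept only through the thapsigargin arrays, 4 rose and 4 fell, with a median of -0.01, each share (21.1%) near the background. INSR, the insulin receptor, stood close to background at 5.52 and 5.29 on the DMSO arrays and at 5.28 and 5.34 on the thapsigargin arrays, and did not pass (log2 change -0.10, SE 0.095, limma adjusted p = 0.459). IRS1, a docking protein of the receptor, was also close to background (5.38 and 5.40 against 5.63 and 5.32) and did not pass (0.08, SE 0.108, limma adjusted p = 0.57). The groups overlapped for both genes, and at such low signal a moderate change may not be detectable. IRS2, the other main docking protein, was well above background and fell 1.51-fold, from 9.74 and 9.75 to 9.18 and 9.10 (log2 change -0.60, SE 0.076, limma adjusted p = 0.000635). The largest rise of the group was TRIB3, described above with the ATF4 outputs. EIF4EBP1, the translation repressor under mTORC1, rose 1.39-fold, and FOXO1, a factor that insulin restrains, rose at least 1.17-fold from below background. RPS6KB1 (-0.01) did not pass.

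The title also names mitochondria. Of 24 kept genes of oxidative phosphorylation 7 fell and none rose (median -0.12, range -0.37 to 0.16). This count was not stable: it was 11 under median centring, 4 with the replicate number as a block and 2 to 4 with any 1 array left out. NDUFV2 and COXFA4, parts of complexes I and IV, fell by 0.37 and 0.36 on the log2 scale; COXFA4 did not pass without DMSO replicate 1, and NDUFV2 did not pass without either replicate 3. Falls of NDUFV2 and COX7B (-0.36) did not pass with the replicate number as a block. UQCRC2 (0.02) and COX5A (-0.01) did not pass.

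Among 17 kept genes of mitochondrial upkeep 4 rose and 5 fell (median -0.09). The mitochondrial chaperone HSPA9 rose 1.71-fold (11.56 and 11.62 against 12.32 and 12.42) and the protease LONP1 rose 1.62-fold (10.93 and 11.03 against 11.68 and 11.67). UCP2, a carrier of the inner membrane, fell 2.13-fold from 8.10 and 8.03 to 6.96 and 6.99 (SE of the log2 change 0.076, limma adjusted p = 3.19e-05), and VDAC1, the main channel of the outer membrane, fell 1.47-fold. The groups did not overlap for these 4 genes. BNIP3L (0.02) and POLG (0.06) did not pass.

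Some of the largest changes lay outside these groups. PCP4, a small calmodulin-binding protein of neurons, had the largest rise on the array with background correction, from 5.04 and 5.26 to 9.48 and 9.50 (log2 change 4.34, SE 0.092, 20.3-fold, limma adjusted p = 2.3e-07), and was above background on 1 of the 2 DMSO arrays. ZNF467, a zinc finger protein, went from 5.41 and 5.51 to 8.21 and 8.19, or 6.68-fold. PLPP5, a lipid phosphatase, rose 6.07-fold, AKNA, an AT-hook protein, rose 5.85-fold, and BEST1, a calcium-activated chloride channel, rose 5.42-fold. BEST1 was above background on only 1 DMSO array.

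The largest falls outside the lists were ranked over probes, so the probe given first need not be the brightest. DLK1, a transmembrane ligand related to Delta, fell 6.3-fold on 1 probe, from 8.88 and 8.89 to 6.23 and 6.24, and on its brightest probe it went from 11.35 and 11.31 to 8.75 and 8.82 (log2 change -2.54). RET, the receptor for ligands of the GDNF family, fell 4.54-fold from 9.23 and 9.18 to 6.99 and 7.05, and further probes fell by 1.88 and 1.89. CRABP2, which carries retinoic acid to the nucleus, fell 6.03-fold from 9.96 and 9.72 to 7.30 and 7.19. In each of these genes both treated arrays were below both controls. FBP1, of gluconeogenesis, fell 4.46-fold, TNFAIP6, a hyaluronan-binding protein, fell 4.43-fold, and NNAT (neuronatin) fell 4.22-fold on 1 probe and by 1.65 on its brightest. ETV4, an ETS factor, fell 3.84-fold, LAMA1, a laminin chain, fell 3.76-fold, and CBLN2, a synaptic organiser, fell 3.55-fold. SLCO4A1, an organic anion carrier, ASIC1, a proton-gated channel, and UHRF1, which guides maintenance of DNA methylation, fell 3.14-fold to 3.41-fold. HSPA2, a further Hsp70, fell below background, at least 3.05-fold lower.

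Markers of the noradrenergic state itself were more often lower than higher. Of 16 kept markers, 1 kept only through the DMSO arrays, 7 fell and 1 rose (median -0.17). DDC, an enzyme of dopamine synthesis, fell 2.48-fold from 11.74 and 11.67 to 10.41 and 10.38 (SE of the log2 change 0.076, limma adjusted p = 1.29e-05). GAP43, a growth cone protein, fell 1.95-fold, and the transcription factor GATA2 fell 1.66-fold. SCG2, a granin of secretory granules, moved the other way, from 11.13 and 11.13 to 12.11 and 11.99, a 1.89-fold rise. PHOX2A (-0.08) and GATA3 (0.06), factors of sympathetic identity, did not pass. CD44, of the mesenchymal list, fell 2.03-fold, and EPCAM, of the epithelial list, rose 1.58-fold.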

How the data were processed

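Per the file headers, the deposited table gave a non-normalized intensity and a detection p-value for each probe under each sample; the sources used here name no scanner software or array processing. A second table held intensities normalized by the authors and served as an alternative. Column independence was checked first, and 4 arrays were used; the detection p-values deposited under replicate 2 of each group ordered the probes of replicate 1 and were used for it. The members and gene lists were chosen with earlier results of these data known.

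Background correction and quantile normalization of the intensities used neqc (limma 3.58.1, R 4.3.3; offset 16), which took its negative controls from the detection p-values; the analysis was on log2 values, and the offset pulls changes of dim probes towards 0. Probes with a detection p below 0.05 on both arrays of at least 1 group were kept. Each was fitted with lmFit and eBayes (two-sided, Benjamini-Hochberg over 12574 probes, 2 residual degrees of freedom, prior 6.06). Of all probes, 19715 had 1 gene symbol in the platform annotation and 2469 none. A gene was read through its brightest kept probe, except in the ranking of the largest changes, which took the probe that changed most. Named were the 15 largest rises and falls and a fixed set of stress and insulin genes. Of each list, up to 4 members that passed with the largest and up to 2 with the smallest change were also named. Genes named for a motif or a probe that disagreed, and the further glycan assembly enzymes, were chosen after their values were seen. A fold against a group with no array above background is given as a bound. The labels do not say whether replicate numbers pair the samples, and the main fit used no pairing. The correlation of deviations by replicate number was -0.167, but with 2 arrays per group it cannot settle whether samples were paired. In 10 simulated sets with 200 changed probes, 97% of changes of 0.5 and 100% of changes of 1 were recovered, with 8.74% and 6.64% false calls. Both false shares were above the threshold of 0.05. The sets had independent normal noise at the fitted spread and far fewer changed probes than the 4786 called here. These rates may therefore not carry over to the calls. Alternatives covered background, scaling, filter, variance model, block, left-out arrays, probe choice, the authors' normalized values and all 6 columns. Motifs were found and figures drawn in Python 3.11.15 (matplotlib 3.10.9, pandas 2.3.3, numpy 2.4.6). The window of 1 gene with an ERSE match is not reported here.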

Additional observations from a re-analysis of the deposited data

How the results depend on the processing

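No called probe changed sign under any alternative run, and of 1981 values of the 156 named probes 1889 kept direction and side of the threshold, 56 lost the call, 32 gained it and 4 reversed. Without background correction, the folds of 13 named genes near background shrank by over 1.5 times, all still past the threshold. On the log2 scale, GDF15 went from 3.29 to 2.49, ZNF467 from 2.74 to 1.99 and SLC6A9 from 2.47 to 1.78. BEST1 went from 2.44 to 1.67, SESN2 from 2.03 to 1.32 and KDELR3 from 1.65 to 1.04. Among the falls, NNAT went from -2.08 to -1.49 and LAMA1 from -1.91 to -1.24. HSPA2 went from -1.88 to -1.22 and SLCO4A1 from -1.77 to -1.14. With the replicate number as a block 3758 probes passed, apoptosis rises fell to 3 and oxidative phosphorylation falls to 4; pairing the numbers crosswise, added after the data were seen, gave 5609. Leaving out 1 array at a time gave 3117 to 3845 calls, 1466 to 1825 rises, 2 to 4 rises in apoptosis, 3 to 4 in calcium handling, 2 to 4 falls in oxidative phosphorylation and 3 to 5 in mitochondrial upkeep. At least 2-fold changes numbered 181 (116 up, 65 down) with normexp, 201 (74 down) without background correction and 198 (72 down) with the authors' normalized values of 3 columns. Median centring gave 1418 rises, 3 in calcium handling and 2 in apoptosis, and 11 falls in oxidative phosphorylation. A trended, robust variance model gave 2621 rises, and it also gave 11 falls in oxidative phosphorylation. A stricter filter left 7 rises among the ATF4 and CHOP outputs and 4 falls among immediate early genes, since fewer genes were tested. Treating all 6 columns as independent gave 9397 calls (4655 up, 4742 down), 183 at least 2-fold (120 up, 63 down), 11 rises among sensors and factors and 14 falls in oxidative phosphorylation; averaged columns understate the spread. It reversed MAP1LC3B (-0.08), RPS6KB1 (0.07), PTPRC (-0.05) and KDR (-0.04), none of which passed in the main test. Causes of other moves were not tested.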

Other observations

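Families gathered by gene symbol after the results were seen carry no test of their own. Cytosolic tRNA synthetases mostly rose, but of 15 mitochondrial ones 3 rose and 6 fell (median -0.14). Of 19 proline isomerases of the FKBP and cyclophilin families 7 rose and 4 fell (median 0.01). FKBP11, PPIC and PPIB, which work in the secretory pathway, rose by 1.86, 1.65 and 1.27, the nuclear PPIE rose by 0.53, and the cytosolic PPIA fell by 0.51. FKBP2 is uncertain, with called probes at 1.12, 0.31 and -0.40. Of 30 DnaJ proteins 8 rose and 6 fell (median -0.01). DNAJB11 and DNAJB9 of the ER rose by 1.23 and 1.04, DNAJB2 and DNAJB6 by 0.58 and 0.48, while DNAJA1 and DNAJB1 fell by 0.76 and 0.56; called probes of DNAJB12 disagreed (-0.53 and 0.41). Of 8 kept p24 cargo receptors 7 rose and none fell, and of 19 SEC proteins 13 rose and none fell. Of 30 proteasome subunits 1 rose and 7 fell, and of 63 cytosolic ribosomal proteins 6 rose and 5 fell. Of 23 kinesins 13 fell, among them the mitotic KIF20A (-0.86) and KIF11 (-0.85), and of 20 genes of the MCM helicase and origin licensing 14 fell.

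Several genes known as outputs or restraints of RET and ERK signalling were lower beside RET (-2.18) and EGR1. ETV4 fell by 1.94, ETV5 by 1.38, SPRY1 by 1.62 and SPRY2 by 0.92, SPRED1 by 0.42, SPRED2 by 0.27 and DUSP6 by 0.86, while DUSP4 rose by 0.47. CCND1 fell by 0.73, from 12.56 and 12.69 to 11.83 and 11.96. These genes were picked after their values were seen. In retinoid handling, DHRS3, a retinal reductase, rose by 1.87, while CRABP2 fell by 2.59 and RARB by 0.30 on its brightest probe. A further RARB probe changed by -0.12.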
